A study of Mus musculus with 24 samples.

Results

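Livers that lacked the clock gene Arntl (also called Bmal1) in hepatocytes were compared with control livers at zeitgeber time (ZT, hours after lights on) 14, in the first part of the night. The libraries were chosen by the time and genotype in their labels, which gave 4 of the 24 libraries of the study, 2 HepKO and 2 HepWT. HepKO mice carried Alb::Cre_+/0 and Bmal1_fl/fl, and HepWT mice carried Alb::Cre_0/0 and Bmal1_fl/fl, so both had the floxed allele and only HepKO had Cre recombinase. All mice were C57BL/6, aged 8 to 12 weeks, and under night restricted feeding, so ZT14 falls after the daily start of access to food. In the whole study liver RNA was sequenced at ZT2, 6, 10, 14, 18 and 22, with 2 libraries for each of 12 combinations of genotype and time. The albumin promoter drives Cre in hepatocytes, and the other cells of the liver keep Arntl. No label says that the 2 libraries of a group are different animals, so a p-value here reflects the spread among these libraries, which may be technical. In bulk tissue, fewer cells of a type and less RNA per cell cannot be told apart.

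The circadian clock of liver cells is a loop in which BMAL1, paired with CLOCK or NPAS2, binds E-box sequences and drives the genes of its own repressors, the period and cryptochrome proteins. A second loop links it to the REV-ERB receptors, which repress, and the ROR receptors, which activate, genes with ROR elements, Arntl among them. The clock also drives the PAR bZIP factors DBP, TEF and HLF, which bind D-box sequences in many genes of liver metabolism. In nocturnal mice the start of the night is when Arntl and other REV-ERB targets of the liver are low, and when feeding turns the liver toward storing glucose and making lipid.

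Total counts at ZT14 were 27110797 and 16910415 in HepKO and 23583035 and 27270413 in HepWT, for replicates 1 and 2, within the range of 12997689 to 30677807 over all 24 libraries. HepKO ZT14 replicate 2 is one of 5 HepKO replicate 2 libraries of low depth. Levels are given as CPM, counts scaled to library size and by TMM, with replicate 1 before replicate 2. Of 11493 genes whose mean log2 CPM was 1 or more, 272 differed by more than 1 (log2) between the HepKO replicates of ZT14 and 260 between the HepWT replicates. The major urinary protein gene Mup17 was at 744 and 1.55 CPM in HepKO, and at 697 and 200 CPM in HepWT. The PPARA target Cyp4a14, a fatty acid hydroxylase, was at 7.35 and 585 CPM in HepKO, against 286 and 137 CPM in HepWT. The estrogen sulfotransferase Sult1e1 was at 80.2 and 0.459 CPM in HepKO. The HepKO libraries of ZT14 thus stood apart from each other in such genes, and none of those 3 genes is used below as a genotype difference.

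The targeted gene was read first. Arntl (ENSMUSG00000055116, chromosome 7 from 113207465 to 113314126, GRCm38) was at 10.4 and 12.0 CPM in HepKO and at 4.90 and 2.93 CPM in HepWT. It was thus higher in HepKO at ZT14, by 2.87-fold (log2 1.52 ± 0.19, SE; edgeR adjusted p = 4.99e-05), and the groups did not overlap. Arntl is near the bottom of its daily course in HepWT at this time: the 12 HepWT libraries of the day had a lowest value of 1.27 CPM at ZT10, a median of 24.1 CPM and a highest value of 46.0 CPM at ZT2. The 12 HepKO libraries lay between 10.3 and 17.7 CPM with a median of 13.5 CPM. The genotype difference was negative at 4 times (log2 -1.51 at ZT2, -0.52 at ZT6, -0.96 at ZT18 and -1.31 at ZT22) and positive at ZT10 (3.05) and ZT14. The counts cover the whole gene, including exons outside the floxed part and RNA of other cells, so at ZT14 this level does not check the deletion. With the spread taken from the 4 ZT14 libraries alone the call was lost (log2 1.51, adjusted p = 0.0725).

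At ZT14, 1320 of 17275 genes tested (7.64%) differed between genotypes at an adjusted p below 0.05 (edgeR's quasi-likelihood test, Benjamini-Hochberg adjustment, spread from all 24 libraries). Of these, 795 were higher in HepKO (4.6% of genes tested) and 525 were lower (3.04%), and 312 and 215 of them changed by at least 2-fold. The median log2 difference over all tested genes was -0.01. The 2 HepKO and 2 HepWT libraries did not overlap in 44.8% of genes tested, so a gap between the groups is common by itself. By time, 321 genes (1.86%) were called at ZT2, 857 (4.96%) at ZT6, 1332 (7.71%) at ZT10, 654 (3.79%) at ZT18 and 233 (1.35%) at ZT22. Of the genes higher at ZT14, 51.7% were also higher at ZT10, which is 63.8% of those higher at ZT10, and 35.8% were also higher at ZT18, which is 79.2% of those higher at ZT18. Of the genes lower at ZT14, 58.1% were also lower at ZT10 (44.3% of those lower there) and 33.9% at ZT18 (60.5%). The sign of the difference was the same at all 6 times for 928 of the 1320 genes. How many of all tested genes kept 1 sign was not counted. Of the 1320 genes, 87 were called at all 6 times. A further 448 were called at ZT14 and at no other time, but only 15 of those passed a test of ZT14 against the other times. Without the 5 libraries of low depth 623 genes were called, without HepWT ZT14 replicate 1 857, and with the spread from the 4 ZT14 libraries alone 269. That last fit also ended the calls of 67 of the 128 named genes called at ZT14. The 501 genes called higher without HepWT ZT14 replicate 2 and the 524 and 333 called higher and lower without HepWT ZT14 replicate 1 were the lowest counts on leaving out 1 library.

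**Figure D1:**
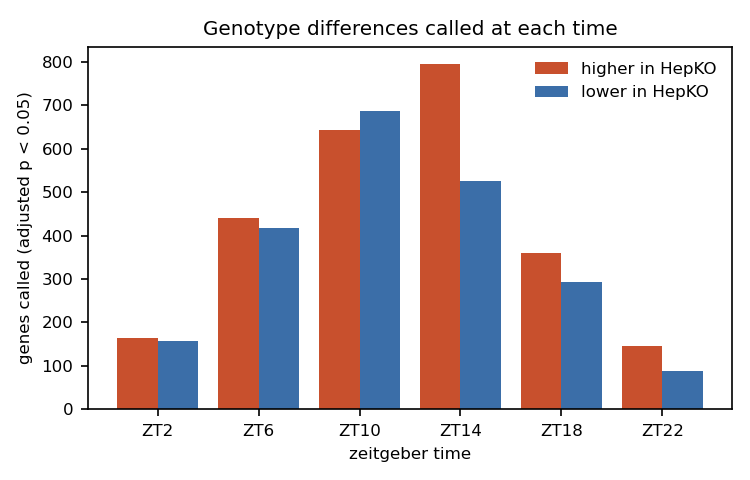
Number of genes called at an adjusted p below 0.05 (y axis, genes) at each zeitgeber time (x axis), with 1 bar for genes higher and 1 for genes lower in HepKO. The bars of ZT14, 795 higher and 525 lower, and of ZT10, 644 higher and 688 lower, are the longest pairs.

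Promoters of clock genes and metabolic genes that differed at ZT14 are shown because they hold the letters bound by the 3 classes of clock factor. Each is the 250 bases before the transcript start from RefSeq (GRCm38.p6), 5′ to 3′ on the gene's strand, in lower case with the searched letters in capitals. The searched letters were CACGTG for the E-box, TAGGTCA or TGGGTCA for the core of the ROR element, and TTATGTAA or TTACGTAA for the D-box, on either strand, so TGACCTA and TGACCCA below are ROR cores on the other strand. Ciart holds 3 E-boxes, Bhlhe41 and Cry1 1 each, Per3 2 D-boxes, and Abcb11 and 1 of the 3 entries of Insig2 hold a ROR core.
Ciart, chr3:95882229-95882478, minus strand: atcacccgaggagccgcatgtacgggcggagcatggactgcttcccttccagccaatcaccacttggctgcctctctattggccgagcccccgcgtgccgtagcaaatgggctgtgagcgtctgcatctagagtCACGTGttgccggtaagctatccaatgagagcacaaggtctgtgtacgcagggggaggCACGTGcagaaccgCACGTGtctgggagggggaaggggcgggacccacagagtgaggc
Bhlhe41, chr6:145865421-145865670, minus strand: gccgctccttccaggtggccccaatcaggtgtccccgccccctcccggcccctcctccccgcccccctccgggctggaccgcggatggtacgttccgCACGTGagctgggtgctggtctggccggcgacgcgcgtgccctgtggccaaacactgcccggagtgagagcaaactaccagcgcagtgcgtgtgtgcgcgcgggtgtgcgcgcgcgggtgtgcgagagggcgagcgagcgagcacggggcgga
Cry1, chr10:85185055-85185304, minus strand: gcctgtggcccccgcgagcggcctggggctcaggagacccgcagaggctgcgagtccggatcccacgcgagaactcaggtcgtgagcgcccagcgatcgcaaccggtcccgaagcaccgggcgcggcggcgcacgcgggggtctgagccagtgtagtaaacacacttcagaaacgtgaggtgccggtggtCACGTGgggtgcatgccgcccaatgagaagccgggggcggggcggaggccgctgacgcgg
Per3, chr4:151044666-151044915, minus strand: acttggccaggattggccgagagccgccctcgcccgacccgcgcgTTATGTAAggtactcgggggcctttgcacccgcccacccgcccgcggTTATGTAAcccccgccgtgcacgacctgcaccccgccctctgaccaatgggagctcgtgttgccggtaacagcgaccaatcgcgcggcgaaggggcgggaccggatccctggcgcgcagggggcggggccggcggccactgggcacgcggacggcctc
Insig2, chr1:121328025-121328274, minus strand: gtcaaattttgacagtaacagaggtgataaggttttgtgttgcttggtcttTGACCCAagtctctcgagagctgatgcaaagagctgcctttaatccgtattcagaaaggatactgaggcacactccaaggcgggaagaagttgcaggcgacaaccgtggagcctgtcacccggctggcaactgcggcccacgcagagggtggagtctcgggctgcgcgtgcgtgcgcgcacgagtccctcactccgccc
Abcb11, chr2:69342617-69342866, minus strand: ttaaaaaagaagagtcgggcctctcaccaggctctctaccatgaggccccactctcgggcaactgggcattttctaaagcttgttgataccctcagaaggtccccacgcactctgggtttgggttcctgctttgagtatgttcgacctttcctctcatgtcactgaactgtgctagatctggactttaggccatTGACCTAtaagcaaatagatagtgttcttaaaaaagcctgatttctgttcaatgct
These matches begin 116, 58 and 44 bases before the start in Ciart, 153 in Bhlhe41, 60 in Cry1, 205 and 158 in Per3, 199 in Insig2 and 56 in Abcb11. Among all 32851 promoters of this length in RefSeq, 6.02% hold the E-box, 5.38% the ROR core and 0.931% the D-box. Among the 14575 promoters of genes tested here the shares were 7.94%, 4.38% and 0.727%. Of the 553 promoters of genes lower in HepKO at ZT14, 11.0% hold the E-box, 3.98% the ROR core and 3.25% the D-box. Of the 842 promoters of genes higher in HepKO, 8.43% hold the E-box, 6.29% the ROR core and 0.475% the D-box. Of the 132 genes named by the rules used here, 106 had a promoter entry. A match is a string of letters and was not measured as a site of binding.

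Of the 15 core clock genes, 6 were higher in HepKO at ZT14, 5 were lower and 4 were not called, against 7.64% called among all tested genes, with a list median of log2 -0.27. On the activating side, Npas2, the paralogue of Clock that can replace it as the partner of BMAL1, was at 14.6 and 28.5 CPM in HepKO and at 0.247 and 0.150 CPM in HepWT. The difference was 106-fold (log2 6.73 ± 0.37, adjusted p = 4.45e-09), and both HepKO libraries were far above both HepWT libraries. Clock was at 143 and 115 CPM in HepKO and at 64.6 and 77.2 CPM in HepWT, a rise of 1.82-fold (adjusted p = 0.000119). The repressor Cry1 was at 54.7 and 70.9 CPM in HepKO and at 22.6 and 20.4 CPM in HepWT, a rise of 2.92-fold (log2 1.54 ± 0.14, adjusted p = 1.36e-06). Groups did not overlap in any of these 3 genes, and the HepKO libraries were the higher ones. The receptor gene Rora rose by less, with log2 0.65 ± 0.12, and lost its call without the 5 libraries of low depth (0.47). Rora differed at ZT14 alone of the 6 times, with differences between -0.03 and 0.11 at the others and a HepWT mean of 80.1 CPM at ZT14 against 128 to 145 CPM, whereas the test of that contrast gave an adjusted p of 0.057.

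The lower members were repressors. Ciart, a repressor of the BMAL1 complex, was at 1.80 and 0.631 CPM in HepKO and at 14.3 and 15.5 CPM in HepWT, a fall of 11.6-fold (log2 -3.54 ± 0.32, adjusted p = 1.36e-06). Bhlhe41, the E-box repressor DEC2, was at 0.375 and 0.516 CPM in HepKO and at 3.83 and 2.55 CPM in HepWT (log2 -2.85 ± 0.45). Nr1d2, which encodes REV-ERB beta, was at 16.7 and 21.3 CPM in HepKO and at 78.9 and 71.6 CPM in HepWT, a fall of 3.98-fold (adjusted p = 7.22e-07). All HepKO libraries lay below all HepWT libraries in these 3 genes. Nr1d1, which encodes REV-ERB alpha, was at 2.55 and 2.29 CPM in HepKO, below 13.7 and 6.31 CPM in HepWT (log2 -2.03 ± 0.38), and its call was lost without the 5 libraries of low depth (-1.97, adjusted p = 0.0813). Its HepWT level has already dropped at ZT14 from a highest value of 50.4 CPM at ZT6, and Nr1d1 overlaps Thra on the other strand, whose reads could be shared if strand was not used in counting. The period gene Per3 was at 11.6 and 12.4 CPM in HepKO and at 41.8 and 37.8 CPM in HepWT, a fall of 3.32-fold (log2 -1.73 ± 0.16, adjusted p = 2.39e-06). The other period genes were not called: Per1 had log2 -0.67 ± 0.39 with HepKO at 19.5 and 7.80 CPM against 23.1 and 21 CPM, and Per2 had log2 -0.27 ± 0.19 with 74.6 and 75.4 against 94.7 and 85.6 CPM. Cry2 (log2 0.25 ± 0.18) and Bhlhe40 (log2 -0.30 ± 0.21) were not called either, and without HepWT ZT14 replicate 2 the difference of Cry2 was -0.01.

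Clock-driven factors and output genes were mostly lower in HepKO at ZT14. Of 14 PAR bZIP factors and output genes tested, 11 were lower, 1 was higher and 2 were not called. The share called was 85.7%, against 7.64% of all tested genes. The list median was log2 -1.35 at ZT14, -1.71 at ZT10, -0.84 at ZT18 and between -0.24 and 0.10 at ZT2, ZT6 and ZT22. Dbp, the PAR bZIP activator of D-box genes, was at 6.26 and 6.37 CPM in HepKO and at 42.1 and 37.4 CPM in HepWT, a fall of 6.30-fold (log2 -2.65 ± 0.20, adjusted p = 2.76e-07). Por, which encodes the reductase that passes electrons to cytochrome P450 enzymes, was at 101 and 133 CPM in HepKO and at 462 and 610 CPM in HepWT, 4.58-fold lower (adjusted p = 4.94e-06). Nampt, the rate-limiting enzyme of NAD salvage, was at 68.8 and 60.2 CPM in HepKO and at 211 and 249 CPM in HepWT, 3.56-fold lower (log2 -1.83 ± 0.11, adjusted p = 1.31e-08). In each of these genes HepKO libraries were below HepWT libraries with no overlap. ZT14 is the time of the highest HepWT library of both Por and Nampt, whereas HepKO libraries of the whole day lay between 86.8 and 133 CPM for Por and between 50.9 and 81.6 CPM for Nampt. Gys2, the liver glycogen synthase, was at 77.1 and 117 CPM in HepKO and at 362 and 388 CPM in HepWT, 3.88-fold lower (log2 -1.95 ± 0.16, adjusted p = 4.72e-07). The cell cycle kinase Wee1 was at 6.53 and 7.40 CPM in HepKO, below 19.8 and 14.9 CPM in HepWT (log2 -1.32 ± 0.18). The ubiquitin protease Usp2 was at 15 and 10.3 CPM, below 31.5 and 33.6 CPM (log2 -1.35 ± 0.24), and lost its call without the 5 libraries of low depth (-1.12, adjusted p = 0.0633). Rgs16, a regulator of G protein signalling, was at 0.0375 and 0.229 CPM in HepKO against 15 and 6.27 CPM in HepWT (log2 -6.47 ± 1.09). It was not called by limma-voom (adjusted p = 0.0761), and it overlaps a predicted gene on the other strand. The member that went the other way was Avpr1a, the liver receptor of vasopressin, at 41.1 and 48.4 CPM in HepKO and 7.95 and 9.46 CPM in HepWT, 5.12-fold higher (log2 2.36 ± 0.18, adjusted p = 3.31e-07).

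The largest increases and decreases at ZT14 outside the clock lists included genes of lipid handling, detoxification and the cell surface. Loxl4, a lysyl oxidase that crosslinks matrix, was at 49.6 and 47.1 CPM in HepKO and at 0.906 and 1.28 CPM in HepWT, 43.9-fold higher (log2 5.46 ± 0.26, adjusted p = 7.98e-10). Elovl3, an elongase of very long fatty acids, was at 834 CPM in each HepKO library and at 24.2 and 19.2 CPM in HepWT, 38.5-fold higher (log2 5.27 ± 0.45, adjusted p = 9.35e-07). Slc34a2, a phosphate transporter, was at 79.8 and 63.3 CPM in HepKO and at 1.73 and 1.46 CPM in HepWT, 44.8-fold higher (adjusted p = 8.96e-07). HepKO was higher in both libraries for all 3 genes. The neurotrophin receptor gene Ntrk2 was 47.3-fold higher, with 30.5 and 12.2 CPM in HepKO and 0.371 and 0.526 CPM in HepWT. The xenobiotic P450 gene Cyp2c55 was 22.8-fold higher, with 96.5 and 167 against 5.48 and 6.05 CPM. The cell cycle inhibitor Cdkn1a (p21) was 21.9-fold higher, with 24 and 21.8 against 1.07 and 1.01 CPM. Lpl, lipoprotein lipase, which adult hepatocytes make little of, was 19.5-fold higher, with 519 and 245 against 13.3 and 25.8 CPM. The receptor kinase Grk5 had the smallest p among the named increases, at 55.8 and 58.7 CPM in HepKO against 4.61 and 4.77 CPM in HepWT (log2 3.61 ± 0.14, adjusted p = 1.15e-10). The largest fitted value was that of Moxd1, a monooxygenase-like gene of copper-binding type, with log2 8.96 ± 1.39, but its HepKO libraries were at 378 and 19.3 CPM and limma-voom did not call it (adjusted p = 0.301). Over the whole day the lowest HepKO library lay above the highest HepWT library in each gene of this paragraph except Cdkn1a. For Lpl these libraries were at 245 and 97.5 CPM, for Cyp2c55 at 96.5 and 20.1 CPM, and for Grk5 at 55.8 and 24.8 CPM. A gap in these genes was thus not particular to ZT14, and its size is compared with the other times below for Elovl3 and Loxl4.

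**Figure D2:**
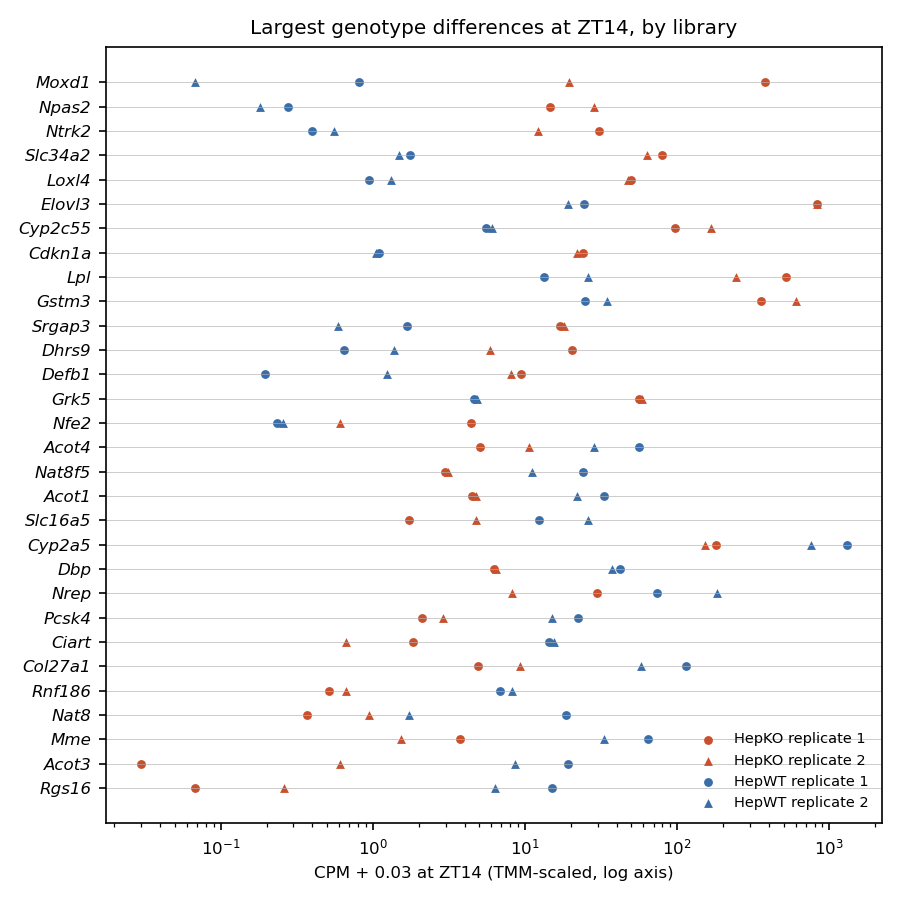
Level in each of the 4 libraries of ZT14 (x axis, CPM + 0.03 on a log axis) of the genes with the largest increases and decreases at ZT14, with a point for each HepKO and each HepWT library. HepKO and HepWT points do not overlap in any gene shown, which the rule for choosing them required, and Moxd1 and Nfe2 have HepKO points far apart.

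Among the decreases, Acot3, an acyl-CoA thioesterase of peroxisomes, was at 0 and 0.573 CPM in HepKO and at 19.2 and 8.52 CPM in HepWT (log2 -5.84 ± 0.86, adjusted p = 0.000281). Mme, the membrane peptidase neprilysin, was at 3.71 and 1.49 CPM in HepKO and at 64.5 and 32.7 CPM in HepWT, 17.8-fold lower (adjusted p = 2.17e-05). Over the whole day Mme lay between 1.49 and 7.95 CPM in HepKO and between 18.6 and 64.5 CPM in HepWT. Rnf186, a ubiquitin ligase, was at 0.488 and 0.631 CPM in HepKO and at 6.84 and 8.15 CPM in HepWT, 13.5-fold lower. The HepKO libraries were below the HepWT libraries in each, and the same held for Col27a1, a fibrillar collagen, at 4.88 and 9.18 against 114 and 58.0 CPM, 12.5-fold lower (adjusted p = 1.18e-05). Pcsk4, a proprotein convertase, fell by 7.64-fold to 2.06 and 2.87 CPM from 22.1 and 15.1 CPM. Cyp2a5, a P450 gene with close relatives whose reads can be split between them, was at 179 and 152 against 1300 and 759 CPM, 6.23-fold lower. Several other members of this group lost their call when 1 library was left out, in some cases with a difference of similar or larger size. The N-acetyltransferase gene Nat8 (log2 -4.10) had HepWT values of 18.6 and 1.69 CPM and was no longer called without HepKO ZT14 replicate 1 (-3.45), HepKO ZT14 replicate 2 (-4.88) or HepWT ZT14 replicate 1 (-1.52). Nrep (log2 -2.73) lost its call without HepKO ZT14 replicate 2 (-2.10) or HepWT ZT14 replicate 2 (-1.93). The transporter gene Slc16a5 (log2 -2.63) lost it without HepKO ZT14 replicate 1 (-2.01) or HepWT ZT14 replicate 2 (-1.99). Among the increases, Nfe2 (log2 3.54) lost it without HepKO ZT14 replicate 1 (1.39) or HepWT ZT14 replicate 1 (3.49).

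To ask what sets the start of the night apart, the genotype difference at ZT14 was tested against the mean of the differences at the other 5 times. In 107 of 17275 genes (0.619%) the contrast passed an adjusted p below 0.05, with ZT14 above the other times in 80 (0.463%) and below in 27 (0.156%). Of these genes 106 were also called at ZT14, 79 of them higher and 27 lower in HepKO, and in 86 the difference at ZT14 was the largest of the 6 times in size. The genes were chosen by their departure at ZT14, so the count of 86 is largely set by that choice and is no separate evidence. Against the neighbours of ZT14 in time fewer genes were called, and the count depended on the tool. With the mean of ZT10 and ZT18 as the reference, edgeR called 0 genes, with 1008 at an unadjusted p below 0.05 and a smallest adjusted p of 0.0783, limma-voom called 0 (968 unadjusted), and DESeq2 called 26 (793 unadjusted). Against ZT10 alone edgeR called 0 genes (1181 unadjusted), and against ZT18 alone 21 (995 unadjusted). Of the 33 named genes that passed against the day's mean, 32 had the same sign against ZT10 and ZT18 and 26 had an unadjusted p below 0.05. The contrast that chose these genes uses the same ZT14 libraries and has ZT10 and ZT18 among its reference times. Those counts are therefore largely set by the choice of genes and are no separate evidence. The contrasts given below are thus with the day's mean, and edgeR called a departure from the mean of ZT10 and ZT18 for none of these genes. Which of them were among the 21 called against ZT18 alone was not compared. The count of 107 was 63 without HepWT ZT14 replicate 2 and 29 without the 5 libraries of low depth, and the count above the other times was 44 and 53 without HepWT ZT14 replicate 2 and replicate 1.

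**Figure D3:**
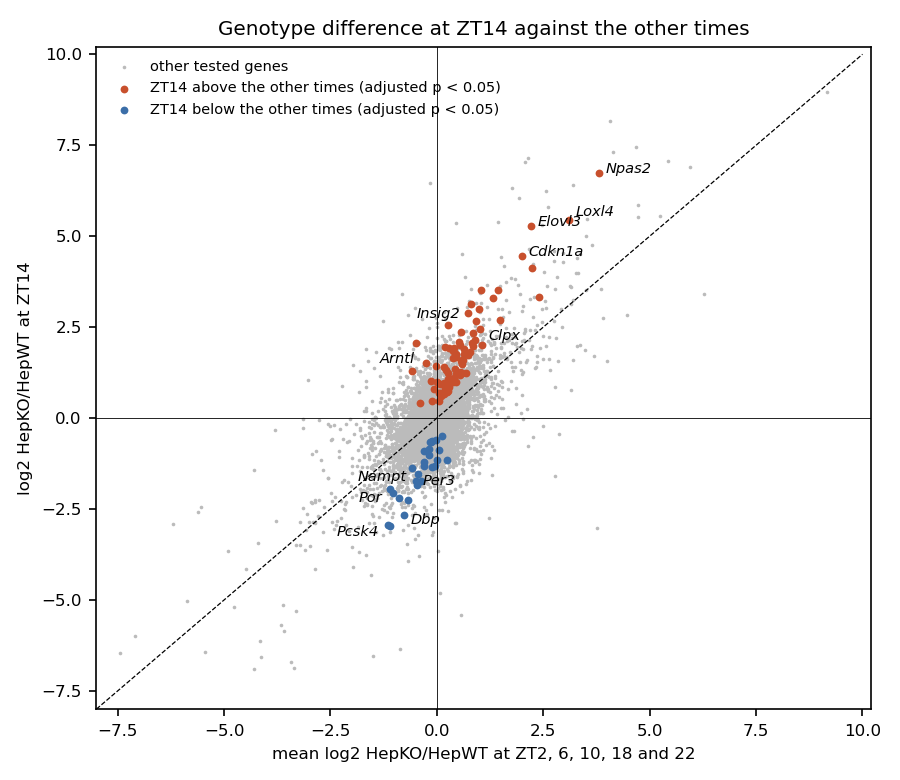
Genotype difference at ZT14 (y axis, log2) against the mean genotype difference of the other 5 times (x axis, log2) for each tested gene, with the 107 genes that passed the test between them in colour; 1 gene lies outside the axes. Marked genes above the diagonal outnumber those below it, 80 to 27, and Elovl3 and Npas2 lie farthest above it among the named genes.

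In Elovl3, Npas2, Clpx and Insig2, which departed upward, HepWT was at or near its daily low at ZT14. HepKO varied less in proportion over the day, with libraries at 14.6 to 28.5 CPM for Npas2 and 346 to 491 CPM for Clpx. At ZT10 Npas2 was at 19.2 and 21.3 CPM in HepKO and at 0.109 and 0.166 CPM in HepWT. Clpx was there at 491 and 457 against 67.9 and 73.5 CPM, so both gaps were wide at ZT10 too. Against the mean of ZT10 and ZT18, edgeR gave log2 0.45 for Npas2 (adjusted p = 0.946) and 0.43 for Clpx (adjusted p = 0.52). Elovl3 had the largest contrast of the named genes (log2 3.05 ± 0.44, adjusted p = 0.00179): its HepWT mean was 21.7 CPM at ZT14 and 380 CPM at ZT22, whereas its HepKO means lay between 834 and 1090 CPM. The contrast of Npas2 was 2.91 ± 0.47 (adjusted p = 0.00462) with HepWT means of 0.199 CPM at ZT14 and 7.88 CPM at ZT2. Its call was lost without HepWT ZT14 replicate 2 (2.59, adjusted p = 0.0885) and with limma-voom (2.76, adjusted p = 0.31). Clpx, the unfoldase of the mitochondrial matrix that activates the first enzyme of heme synthesis, was at 374 and 370 CPM in HepKO and at 69.1 and 66.6 CPM in HepWT (log2 2.45 ± 0.11, adjusted p = 2.94e-10), and its contrast was 1.45 ± 0.11 (adjusted p = 6.18e-06). Insig2, which holds the sterol sensor SCAP in the endoplasmic reticulum, was at 302 and 306 CPM in HepKO and at 47.5 and 48.4 CPM in HepWT, 6.33-fold higher (adjusted p = 7.13e-09), with a contrast of 1.75 ± 0.16 (adjusted p = 2.11e-05). In Clpx and Insig2 both HepKO libraries of ZT14 were several-fold above both HepWT libraries, and the lowest HepWT library of the day was one of ZT14. Dtx4, a ubiquitin ligase of Notch signalling, was at 38.4 and 45.3 against 4.61 and 3.90 CPM, with a contrast of 1.99 ± 0.18 (adjusted p = 2.41e-05), and it had the smallest adjusted p of all genes against ZT10 and ZT18 (log2 1.35, adjusted p = 0.0783). Avpr1a, described above, had a contrast of 1.80 ± 0.19 (adjusted p = 0.000137) and Loxl4 one of 2.35 ± 0.28 (adjusted p = 0.00026). The contrast of Arntl itself was 1.77 ± 0.21 (adjusted p = 0.00026), and against ZT10 and ZT18 it was 0.47 (adjusted p = 0.851).

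In Ppp1r3c and Apoa4 the HepKO level itself was higher at ZT14 than at ZT10. Ppp1r3c, a glycogen-targeting subunit of protein phosphatase, was at 184 and 211 CPM in HepKO and at 40.9 and 25.9 CPM in HepWT at ZT14, 5.92-fold higher (log2 2.56 ± 0.32, adjusted p = 5.8e-05). Its HepKO mean was 53.5 CPM at ZT10 and 198 CPM at ZT14, while its HepWT mean was 32.2 and 33.4 CPM at those times. The contrast was 2.31 ± 0.35 (adjusted p = 0.00272), and the difference passed the test at no other time. Without the 5 libraries of low depth the contrasts of Ppp1r3c (2.21, adjusted p = 0.137) and Elovl3 (3.01, adjusted p = 0.103) were not called. Apoa4, an apolipoprotein of triglyceride-rich particles, was at 114 and 674 CPM in HepKO and at 81.9 and 108 CPM in HepWT (log2 2.05 ± 0.49, adjusted p = 0.0142). Only HepKO ZT14 replicate 2 was far above the HepWT libraries: without it the difference was 0.27 (adjusted p = 0.692) and the contrast was 0.77 in place of 2.55. Without HepWT ZT14 replicate 1 or 2 neither the difference (1.87 and 2.27) nor the contrast (2.37 and 2.76) was called. Slc41a2, a magnesium transporter, was at 51.9 and 21.2 against 16.4 and 13.7 CPM (log2 1.29 ± 0.32); its HepWT mean was 15.1 CPM at ZT14 and 44.1 to 81.3 CPM at the other times, and its difference was negative at each of the other 5 times (-0.80 to -0.33). That call was lost without HepKO ZT14 replicate 1 (0.49), HepWT ZT14 replicate 1 (1.42) or HepWT ZT14 replicate 2 (1.17). Its contrast of 1.88 was lost without the same 3 libraries (1.08, 2.01 and 1.75). Tubb2a, a beta tubulin, was at 86.6 and 154 against 17.5 and 9.80 CPM, 8.79-fold higher, with a contrast of 2.33 ± 0.29 (adjusted p = 0.000421), which was lost without the 5 libraries of low depth (1.81, adjusted p = 0.0638). The secreted matrix protein gene Spon2 was at 11.5 and 19.9 against 1.24 and 1.46 CPM, with a contrast of 2.09 ± 0.29 that limma-voom did not call (adjusted p = 0.0543). Cdkn1a had a contrast of 2.46 and Acnat2, an acyl-CoA amino acid transferase, one of 2.16. Both lost that call on leaving out any of the 4 ZT14 libraries, with values from 2.39 to 2.52 for Cdkn1a and from 1.94 to 2.42 for Acnat2.

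**Figure D4:**
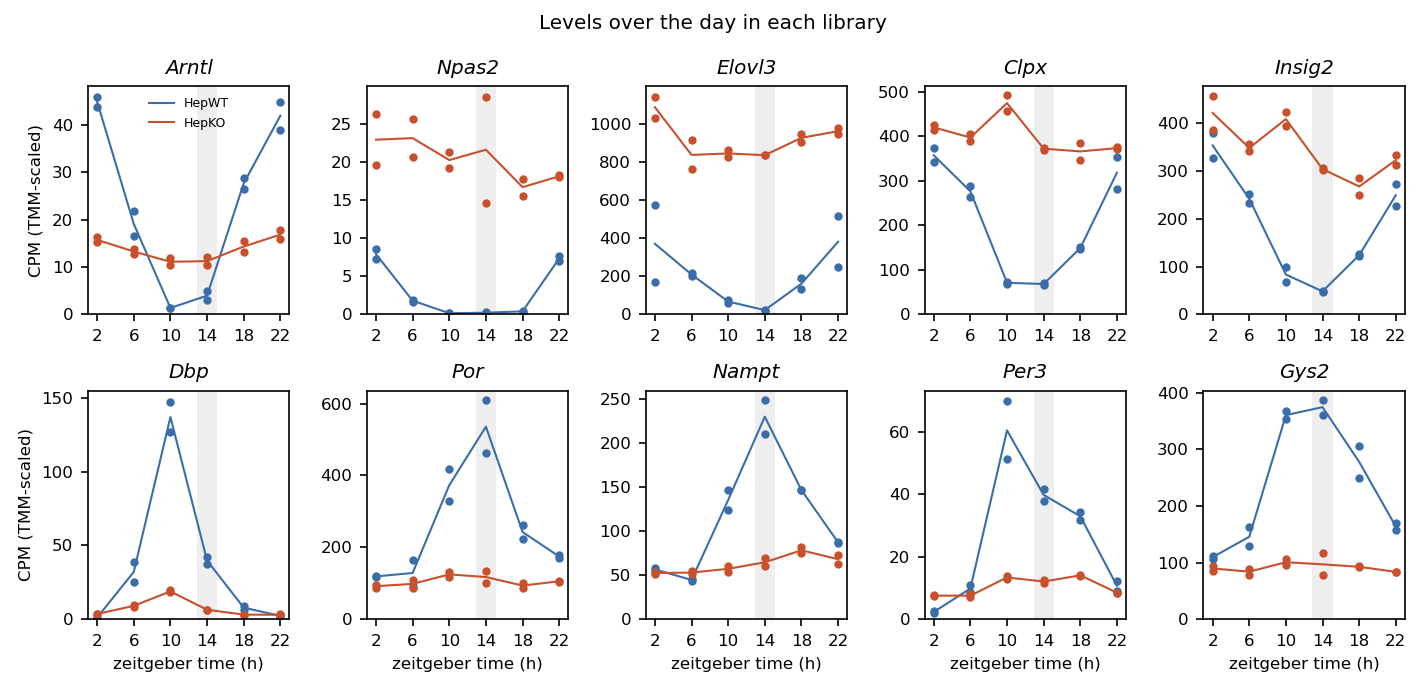
Level (y axis, CPM) at each zeitgeber time (x axis, hours) of selected genes in HepKO and HepWT, with a point for each library and a line through the means; a grey bar marks ZT14. For Elovl3 and Insig2 the lowest HepWT mean is at ZT14, 21.7 and 48.0 CPM, and for Nampt and Por the highest HepWT mean is there, 230 and 536 CPM.

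In Nampt and Por, which departed downward, HepWT had its highest mean at ZT14. The contrast of Nampt was -1.36 ± 0.12 (adjusted p = 1.72e-05): its HepWT mean rose from 44.4 CPM at ZT6 to 230 CPM at ZT14, and its HepKO means lay between 52.3 and 78.1 CPM. Against ZT10 and ZT18 its difference was -0.76 (adjusted p = 0.141). Dbp had a contrast of -1.88 ± 0.22 (adjusted p = 0.00026) and Pcsk4 one of -1.77 ± 0.27 (adjusted p = 0.00324), but the difference of Dbp was as large at ZT10 (log2 -2.87). Per3 had a contrast of -1.25 ± 0.18 (adjusted p = 0.00173) and Wee1 one of -1.28 ± 0.20 (adjusted p = 0.00324), and both were larger in size at ZT10 (-2.18 and -1.87) than at ZT14. Gpcpd1, a phosphodiesterase of glycerophosphocholine, was at 77.8 and 48.6 CPM in HepKO and at 240 and 369 CPM in HepWT, 4.81-fold lower (log2 -2.27 ± 0.24, adjusted p = 1.12e-05). Its difference was -0.01 at ZT18. Its contrast of -1.60 ± 0.26 (adjusted p = 0.00509) was lost without HepKO ZT14 replicate 2 (-1.30) or HepWT ZT14 replicate 2 (-1.25). Abhd6, a lipase of monoacylglycerol, was at 11.8 and 10.8 against 55.3 and 39.7 CPM (log2 -2.07 ± 0.15), with a contrast of -1.03 ± 0.16 (adjusted p = 0.00458). Rhbdd2, a rhomboid-like membrane protein gene, was at 8.48 and 6.59 against 20.1 and 24.1 CPM, with a contrast of -1.11 ± 0.15 (adjusted p = 0.00103). The contrasts of Per3, Wee1, Abhd6 and Rhbdd2 were lost without the 5 libraries of low depth (-1.28, -1.38, -0.95 and -0.94). The flavin monooxygenase gene Fmo2 was at 17.2 and 19.6 against 45.7 and 77.1 CPM, with a contrast of -1.37 that was lost without HepKO ZT14 replicate 1 (-1.27) or HepWT ZT14 replicate 2 (-0.94), and the contrast of Por (-1.31) was lost without the same libraries (-1.12 and -1.09). The contrast of Gys2 (-0.86) was lost without HepKO ZT14 replicate 1 (-0.59), HepWT ZT14 replicate 1 (-0.91) or HepWT ZT14 replicate 2 (-0.81). Those of Usp2 (-1.24) and the laminin gene Lama3 (-1.02) were lost without HepKO ZT14 replicate 2 (-1.0 and -0.82), HepWT ZT14 replicate 1 (-1.28 and -0.99) or HepWT ZT14 replicate 2 (-1.19 and -1.04). Against ZT10 and ZT18 the difference of Usp2 had the opposite sign (0.24, adjusted p = 0.938). Of the 25 promoters (19 genes) below the other times, 6 hold the E-box (24%), 0 the ROR core and 3 the D-box (12%). Of the 90 promoters (63 genes) above, 6 hold the E-box (6.67%), 7 the ROR core (7.78%) and 1 the D-box (1.11%). The shares among all promoters of genes tested were 7.94%, 4.38% and 0.727%, and the difference from them was not tested.

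Genes of lipid metabolism, which feeding regulates, moved in both directions. Of 27 genes of cholesterol synthesis and uptake, 16 were higher in HepKO at ZT14, 0 were lower and 11 were not called, with a median of log2 1.00 against -0.01 for all genes. Called members made up 59.3% of this list, against 7.64% of all tested genes. Hmgcs1, an early enzyme of the pathway, was at 610 and 827 CPM in HepKO and at 114 and 116 CPM in HepWT, 6.24-fold higher (log2 2.64 ± 0.35, adjusted p = 9.57e-05). Mvk, mevalonate kinase, was at 24.4 and 29.6 against 11.0 and 9.84 CPM, 2.58-fold higher (adjusted p = 0.000772), and Dhcr7, which makes the last step, was at 55.7 and 73.1 against 28.3 and 29.4 CPM, 2.23-fold higher (adjusted p = 0.000595). HepKO was higher in both libraries with no overlap in all 3. The median of the list was 0.15 at ZT2, 0.57 at ZT6, 0.67 at ZT10, 1.11 at ZT18 and 0.84 at ZT22, and 1 member, Insig2, passed the test of ZT14 against the other times. The count of 16 was 10 without HepWT ZT14 replicate 2 and 9 without the 5 libraries of low depth.

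Of 25 genes that make fatty acids and triglycerides, 8 were lower, 2 were higher and 15 were not called, with a median of log2 -0.60. The share called was 40%, against 7.64% of all tested genes. Elovl6, an elongase of de novo synthesis, was at 108 and 124 CPM in HepKO and at 341 and 281 CPM in HepWT, 2.68-fold lower (log2 -1.42 ± 0.26, adjusted p = 0.00189). Thrsp, a lipogenic regulator known as Spot14, was at 397 and 244 against 838 and 1205 CPM, 3.18-fold lower, and lost its call without the 5 libraries of low depth (-1.37, adjusted p = 0.129). Fads2, a desaturase, was at 226 and 309 against 606 and 614 CPM (log2 -1.19 ± 0.27), and lost its call without HepKO ZT14 replicate 1 (-0.98) and without the 5 libraries of low depth (-1.44). HepKO was the lower group in these 3 genes without overlap, and Elovl3, given above, went the other way. The fatty acid synthase gene Fasn and the desaturase gene Scd1, both much used as marks of lipogenesis, did not pass: Fasn had log2 -0.60 ± 0.35 and Scd1 log2 -1.22 ± 0.51, and the HepKO and HepWT libraries of Fasn overlapped (527 and 968 against 1478 and 784 CPM). The count of 10 called was 4 without HepKO ZT14 replicate 1, 6 without HepWT ZT14 replicate 1 and 6 without the 5 libraries of low depth.

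Among 36 genes of fatty acid oxidation and targets of the fatty acid receptor PPARA, 15 were lower, 1 was higher and 20 were not called, with a median of log2 -0.46 at ZT14 and -0.39 over the other times, and edgeR called 0 for ZT14 against the other times (9 at an unadjusted p below 0.05). At ZT14 44.4% of the list was called, against 7.64% of all tested genes. Cpt1a, the gate for fatty acids into mitochondria, was at 243 and 309 CPM in HepKO and at 501 and 552 CPM in HepWT, 1.90-fold lower (log2 -0.93 ± 0.12, adjusted p = 0.000109). Slc25a20, the carnitine carrier that follows it, was at 59.2 and 67.0 against 112 and 110 CPM, 1.75-fold lower (adjusted p = 0.000212). Acaa1a, a thiolase of peroxisomes, was at 70.4 and 78.3 against 165 and 135 CPM, 2.01-fold lower (adjusted p = 1.29e-05). The thioesterase Acot4 was at 5.03 and 10.6 against 56.2 and 28.3 CPM, 5.54-fold lower, and its relative Acot1 at 4.46 and 4.76 against 33.0 and 22 CPM, 5.96-fold lower. All HepKO libraries lay below all HepWT libraries in these 5 genes; Acot1, Acot3 and Acot4 are close in sequence, and reads shared between them are uncertain. The PPARA targets Cyp4a14, given above, and Cyp4a10, at 23.2 and 230 CPM in HepKO and 261 and 306 CPM in HepWT, were not called, and their HepKO replicates were far apart. Cidec, a lipid droplet protein, had log2 -2.67 ± 0.72 and was no longer called without HepKO ZT14 replicate 1 (-2.31), HepKO ZT14 replicate 2 (-3.04) or HepWT ZT14 replicate 1 (-1.71), and with limma-voom.

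**Figure D5:**
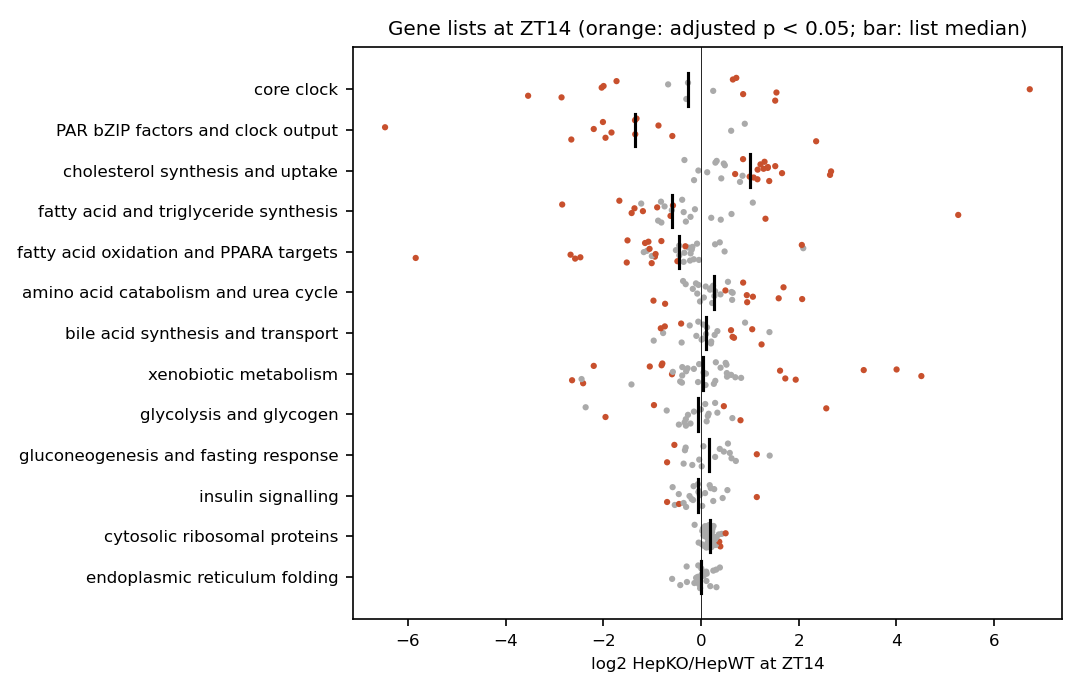
Genotype difference at ZT14 (x axis, log2) of each tested member of the gene lists (y axis), with a point per gene, called members in orange, and a bar at the list median. The points of cholesterol synthesis sit mostly right of 0, with 16 called higher of 27, and those of PAR bZIP factors and clock output mostly left of 0, with 11 called lower of 14.

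Genes that handle glucose split by gene. Of 22 genes of glycolysis and glycogen, 3 were higher, 2 were lower and 17 were not called, with a median of log2 -0.07. The share called was 22.7%, against 7.64% of all tested genes. Gys2 was lower and Ppp1r3c higher, as given above. Slc2a2, the glucose transporter GLUT2, was at 204 and 301 CPM in HepKO and at 518 and 467 CPM in HepWT, 1.95-fold lower (adjusted p = 0.0022), and Gckr, a regulatory protein of glucose metabolism, was at 168 and 232 against 110 and 118 CPM, 1.75-fold higher (adjusted p = 0.00151). Neither pair of groups overlapped. Of 18 genes of gluconeogenesis and fasting, 1 was higher and 2 were lower (median log2 0.17), and of 24 genes of insulin signalling, 1 was higher and 2 were lower (median log2 -0.06), shares of 16.7% and 12.5% against 7.64%. The insulin receptor substrate Irs2 had log2 1.14 ± 0.30 and lost its call without HepKO ZT14 replicate 1 (0.58) or HepWT ZT14 replicate 2 (0.84). Foxo3 had log2 -0.69 ± 0.14 and lost it without HepKO ZT14 replicate 2 (-0.59) or HepWT ZT14 replicate 1 (-0.47). Slc37a4, the glucose 6-phosphate carrier, had log2 -0.54 and lost it without HepKO ZT14 replicate 1 (-0.44) or HepWT ZT14 replicate 2 (-0.38). Eif4ebp1 had log2 -0.45 and lost it without HepKO ZT14 replicate 1 (-0.31), HepWT ZT14 replicate 1 (-0.43) or HepWT ZT14 replicate 2 (-0.47). Without HepWT ZT14 replicate 2 the count called was 1 in each of these 2 lists, and without HepWT ZT14 replicate 1 it was 1 for insulin signalling. Without the 5 libraries of low depth the count for gluconeogenesis was 1.

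Among 30 genes of amino acid breakdown and the urea cycle, 8 were higher and 2 lower in HepKO (median log2 0.26). The share called was 33.3%, against 7.64% of all tested genes. Bhmt, which remethylates homocysteine with betaine, was at 6310 and 5255 CPM in HepKO and at 1283 and 1469 CPM in HepWT, 4.20-fold higher (log2 2.07 ± 0.24, adjusted p = 1.97e-05). Cbs, which turns homocysteine toward cysteine, was at 464 and 512 against 178 and 146 CPM, 3.01-fold higher (adjusted p = 1.46e-05). Oat, ornithine aminotransferase, was at 1962 and 1840 against 742 and 437 CPM, 3.23-fold higher (adjusted p = 0.00107). HepKO was above HepWT in both libraries for these 3 genes. Amt, of the glycine cleavage system, was at 47.0 and 57.9 against 28.2 and 26.2 CPM (log2 0.95 ± 0.13), and the ornithine carrier Slc25a15 at 551 and 417 against 232 and 301 CPM (log2 0.86 ± 0.13). Cbs and Amt also passed the test of ZT14 against the other times (log2 0.98 and 0.79), but Cbs did not without HepKO ZT14 replicate 2 (0.90) or HepWT ZT14 replicate 2 (0.84). Amt did not without HepKO ZT14 replicate 2 (0.63), HepWT ZT14 replicate 1 (0.84) or HepWT ZT14 replicate 2 (0.73). Asl of the urea cycle was lower, at 271 and 279 against 472 and 607 CPM, and lost its call without HepWT ZT14 replicate 2 (-0.78). Of the 10 genes called, 5 were called without the 5 libraries of low depth. Of 18 targets of the stress factor ATF4, 3 were higher (16.7%, median log2 0.30): the stress factor Atf5, at 110 and 190 against 30.8 and 47.7 CPM (log2 1.93 ± 0.25, adjusted p = 7.37e-05), the mTORC1 inhibitor Ddit4, at 29.9 and 13.6 against 4.29 and 4.06 CPM (log2 2.39 ± 0.40), and the folate enzyme Mthfd2. Mthfd2 (log2 1.53) lost its call without HepKO ZT14 replicate 2 (1.21), HepWT ZT14 replicate 1 (1.65) or HepWT ZT14 replicate 2 (1.42). Atf5 passed against the other times (1.53), but not without HepKO ZT14 replicate 2 (1.09) or HepWT ZT14 replicate 1 (1.25), and it overlaps Nup62 and Il4i1 on the other strand.

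In bile acid synthesis and transport, 5 of 25 genes were higher and 3 lower (32% called against 7.64% of all tested genes, median log2 0.10). Abcb11, the bile salt export pump, was at 1104 and 830 CPM in HepKO and at 365 and 453 CPM in HepWT, 2.36-fold higher (log2 1.24 ± 0.14, adjusted p = 1.88e-05). Its HepWT mean of 409 CPM at ZT14 was the lowest of its 6 times, and its contrast with the other times was 0.97 ± 0.15 (adjusted p = 0.0039), lost without HepWT ZT14 replicate 1 (0.82, adjusted p = 0.0525). Fgfr4, the receptor of the intestinal signal that represses bile acid synthesis, rose with log2 0.61 ± 0.09 and its partner Klb fell with log2 -0.82 ± 0.15. Nr1h4, the bile acid receptor FXR, had log2 -0.74 and lost its call without HepKO ZT14 replicate 1 (-0.49), and the transporter Slco1a1 (log2 -0.41) lost it without HepKO ZT14 replicate 1 (-0.32), HepWT ZT14 replicate 1 (-0.46) or HepWT ZT14 replicate 2 (-0.35). Cyp7a1, the rate-limiting enzyme of bile acid synthesis and named for it, was at 303 and 266 against 366 and 608 CPM and was not called (log2 -0.78 ± 0.37, adjusted p = 0.258). The 8 calls were 4 without HepKO ZT14 replicate 1 and 5 without the 5 libraries of low depth. Among 39 genes of xenobiotic metabolism, 6 were higher and 7 lower (33.3% called, median log2 0.05). Gstm3, a glutathione transferase, was at 353 and 603 against 24.8 and 34.7 CPM, 16.0-fold higher (adjusted p = 1.28e-06), and Gstm2 was at 222 and 270 against 22.4 and 26.5 CPM, 10.1-fold higher (adjusted p = 1.03e-08). Both were higher in every HepKO library at ZT14, and reads of these close relatives may be shared. The gap held over the whole day, with a lowest HepKO and a highest HepWT library of 261 and 83.3 CPM for Gstm3. For Gstm2 these were 190 and 63.5 CPM. The contrast of Gstm2 with the other times (0.94) was lost without HepKO ZT14 replicate 2 (0.79), HepWT ZT14 replicate 1 (0.82) or HepWT ZT14 replicate 2 (1.07).

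Other programs of the fed or stressed liver were called below the background share of 7.64%. By edgeR, 0 of 23 genes of endoplasmic reticulum folding were called (1 at an unadjusted p below 0.05), 0 of 32 of ribosome biogenesis (3 unadjusted), 0 of 28 of the interferon response (4 unadjusted) and 0 of 12 RNA-binding genes that respond to temperature (3 unadjusted). Their medians lay between log2 0.01 and 0.05, limma-voom called 0 in each, and DESeq2 called 1 in the interferon list and 0 in the others. Of 22 heat shock genes 1 was lower, of 44 of oxidative phosphorylation 1 was lower, and of 79 cytosolic ribosomal proteins 3 were higher. The ribosomal protein list had a median of log2 0.18 with 77 of 79 members above 0, where 8394 of 17275 tested genes were above 0. That median was 0.10 to 0.22 at the other times, and 0 members passed the test of ZT14 against them. Its 3 called members, Rps12 (log2 0.50), Rpl12 (0.40) and Rpl27a (0.37), fell to 0 without HepKO ZT14 replicate 2, HepWT ZT14 replicate 1 or HepWT ZT14 replicate 2, and to 1 without HepKO ZT14 replicate 1. A larger share, 36.8%, was called among 19 tested genes known as female-biased in liver: 2 were higher and 5 lower (median log2 -1.74), and 4 were called without HepWT ZT14 replicate 2. The median of the female-biased list ran from log2 -2.03 to -0.54 at the other times. Fmo1, a flavin monooxygenase of that list, was at 98.8 and 103 CPM in HepKO and at 210 and 266 CPM in HepWT, 2.35-fold lower (adjusted p = 1.46e-05).

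Genes that answer to hormones and to acute signals were read in the same way. Of 20 genes that respond to glucocorticoids, 2 were higher and 2 lower (20% called against 7.64% of all tested genes, median log2 -0.24). Fkbp5, a glucocorticoid-induced chaperone, was at 37.1 and 51.8 CPM in HepKO and at 90.2 and 211 CPM in HepWT, 3.40-fold lower (adjusted p = 0.00112), and Hsd11b1, which regenerates the active hormone, was at 282 and 278 against 455 and 469 CPM, 1.65-fold lower (adjusted p = 0.000212). The HepKO libraries were the lower ones in both. The kinase Sgk1 rose with log2 1.52 ± 0.29, at 35.3 and 79.5 against 21.9 and 18.0 CPM, and its difference was between 0.17 and 0.47 at the other times; it lost its call without HepKO ZT14 replicate 2 (0.82). The count called in this list was 4, and 7 without HepWT ZT14 replicate 1. Of 20 immediate early genes 2 were lower (10% against 7.64% of all tested genes, with a list median of log2 0.11), Maff (log2 -1.63) and Klf10 (log2 -1.35). Maff was no longer called without HepKO ZT14 replicate 1 (-2.02), HepKO ZT14 replicate 2 (-1.37) or HepWT ZT14 replicate 1 (-1.12), and Klf10 without HepKO ZT14 replicate 1 (-1.15) or HepWT ZT14 replicate 2 (-0.98).

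The labelled tissue was checked against markers. All 8 hepatocyte markers were detected, with sums of 46080 and 56040 CPM in HepKO and 74800 and 82700 CPM in HepWT. The gap lay in Alb, albumin, at 22445 and 34519 against 55916 and 61229 CPM (log2 -1.04 ± 0.21, adjusted p = 0.00481). The hepatocyte list itself had a median of log2 0.15, with 6 of the 8 markers above 0. Alb was the only one of the 8 that edgeR called, where DESeq2 called 3 and 4 had an unadjusted p below 0.05 in edgeR. The call of Alb was lost without HepKO ZT14 replicate 1 (-0.76, adjusted p = 0.0845). Its promoter drives the Cre transgene, and its difference lay between -1.64 and -1.25 at the other times. Marker sums of Kupffer cells were 435 and 364 CPM in HepKO and 348 and 511 CPM in HepWT, with 1 of 12 called. That was Mpeg1 (log2 0.91), the only one of the 12 above 0, and the list median was -0.26. Endothelial sums were 439 and 435 against 518 and 527 CPM, with 2 of 9 called lower (Lyve1, log2 -1.32, and Kdr, -0.28). Stellate cell sums were 431 and 452 against 467 and 535 CPM with 0 of 9 called, and cholangiocyte sums 125 and 52.5 against 38.3 and 56.0 CPM, with 1 of 6 tested called (Sox9, log2 1.12). The calls of Mpeg1, Kdr and Sox9 were lost without HepKO ZT14 replicate 1 (0.66, -0.32 and 0.94), those of Kdr and Sox9 without replicate 2 (-0.25 and 1.28), those of Mpeg1 and Kdr without HepWT ZT14 replicate 1 (0.70 and -0.22), and that of Sox9 without HepWT ZT14 replicate 2 (0.67). Lyve1 was no longer called without HepKO ZT14 replicate 1 (-1.16), HepKO ZT14 replicate 2 (-1.49) or HepWT ZT14 replicate 2 (-0.85). Of 6 neutrophil markers Ly6g and Mpo were listed at 0 in all 4 libraries, and the sums of T and NK cell markers lay between 1.03 and 2.17 CPM. Shares called were 8.33% for Kupffer cell, 22.2% for endothelial, 0% for stellate cell and 16.7% for cholangiocyte markers. Among all tested genes 7.64% were called. The part of other cell types in the differences above was not tested.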

How the data were processed

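Total RNA of mouse liver was sequenced (100-base paired reads, a stranded kit, ribosomal RNA removed, 12 PCR cycles, per the labels' protocols). The authors aligned the reads with STAR 2.4.0i to mm10, per the submitters' processing notes, and deposited counts, whole numbers per gene and library without normalization. No source used here names the counting tool, its strand setting or the annotation, so genes that overlap on opposite strands are uncertain. Beside those marked above, these include Dbp, which overlaps Sphk2, and Elovl3, which overlaps Pitx3. Arntl, Npas2, Clpx, Insig2, Por, Acot3 and Acot4 overlap predicted or clone-named genes on the other strand. Total counts ran from 12997689 to 30677807 per library, and replicates of ZT14 differed by 47.0 (HepKO) and 51.4 (HepWT) times the counting variance per gene, so the spread between libraries set the precision.

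Samples were grouped by genotype and time as labelled. All columns were used, 5 HepKO replicate 2 columns of low depth among them; these have an unexplained suffix in their names. The edgeR 4.0.16 package in R 4.3.3 fitted the counts (TMM, filterByExpr with minimum count 10 and minimum total 15, quasi-likelihood F test, 1 level for each of 12 groups, 12 residual degrees of freedom), two-sided, with Benjamini-Hochberg adjustment over all 17275 genes tested of 35304. The SE of a log2 difference is its size divided by the square root of F. The contrasts were HepKO minus HepWT at ZT14, and that difference minus the mean of the same at ZT2, 6, 10, 18 and 22, which shares the ZT14 libraries. Alternatives were DESeq2 1.42.0, limma-voom (limma 3.58.1), RLE size factors, other filters, a replicate block, the 4 ZT14 libraries alone, ZT10 and ZT18 as the reference, a threshold of 0.01, no libraries of low depth, and leaving out each library; the lone library left in a group is assumed to vary like the other groups. The scripts were tested on simulated data.

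The 43 gene lists, the rules and the libraries compared were chosen with earlier results of these data known. Named genes are the core clock list, the 15 largest changes in each direction and the 4 of smallest p at ZT14, the 12 largest contrasts in each direction with the other times, and up to 4 called members of each list by smallest p; names given for their role, genes whose replicates differ and genes of the neighbouring times were chosen after their values were seen. Predicted gene models are passed over. Positions are from GENCODE M21 (GRCm38), which holds 17251 of the 17275 tested genes. The replicate numbers were not used as pairs: deviations of same-numbered ZT14 libraries had a correlation of -0.14, and those of the other times lay between -0.05 and 0.13. A few items are not reported here.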

Additional observations from a re-analysis of the deposited data

Results flagged for a closer look

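For 33 named genes the genotype difference at ZT14 differed from the mean of the other 5 times by edgeR's test of that contrast (adjusted p below 0.05). With ZT10 and ZT18 as the reference edgeR called 0 of them, and which of them DESeq2 called was not compared. Among clock genes and clock outputs the contrast (log2, positive where ZT14 lay above the other times) was 2.91 for Npas2, 1.77 for Arntl, 1.80 for Avpr1a, -1.88 for Dbp, -1.25 for Per3, -1.28 for Wee1, -1.24 for Usp2, -1.36 for Nampt, -1.31 for Por and -0.86 for Gys2. Among genes of lipid and bile handling it was 3.05 for Elovl3, 2.55 for Apoa4, 2.16 for Acnat2, 1.75 for Insig2, 0.97 for Abcb11, -1.03 for Abhd6 and -1.60 for Gpcpd1. Among genes of amino acid, glycogen, mitochondrial and detoxification enzymes it was 0.98 for Cbs, 0.79 for Amt, 2.31 for Ppp1r3c, 1.45 for Clpx, 0.94 for Gstm2 and -1.37 for Fmo2. In the remaining genes it was 2.46 for Cdkn1a, 2.35 for Loxl4, 2.33 for Tubb2a, 2.09 for Spon2, 1.99 for Dtx4, 1.88 for Slc41a2, 1.53 for Atf5, -1.02 for Lama3, -1.11 for Rhbdd2 and -1.77 for Pcsk4. Calls lost on leaving out 1 library are given with the genes above. What sets ZT14 apart in these genes was not tested.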

How the results depend on the processing

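The ZT14 count of 1320 (795 higher, 525 lower) was 1462 with DESeq2, 1184 with limma-voom and 1294 with RLE size factors. It was 1890 without a filter on low counts (lower: 886), 623 (392 and 231) without the 5 libraries of low depth, 269 (176 and 93) with the 4 ZT14 libraries alone, and 659 (425 and 234) at an adjusted p below 0.01. On leaving out 1 ZT14 library it ran from 857 to 1016, with 501 to 608 higher and 333 to 429 lower; the lowest were without HepWT ZT14 replicate 1 (857 and 333) and HepWT ZT14 replicate 2 (501). The replicate block gave 1347 (807 and 540), and with the numbers of HepKO ZT14 exchanged, an alternative chosen after seeing the data, 1454. The count of ZT14 against the other times, 107 (80 above, 27 below), was 194 (137 and 57) with DESeq2, 595 (371 and 224) without a filter, 29 (23 and 6) without the libraries of low depth, 48 (37 and 11) at 0.01, and 0 (0 and 0) against ZT10 and ZT18. Leaving out 1 of the 24 libraries gave 63 to 125, with 44 to 93 above and 19 to 34 below, lowest without HepWT ZT14 replicate 2 (63 and 44), and the block gave 109. Arntl lost its call with the 4 ZT14 libraries alone (1.51) and, for the contrast with the other times, against ZT10 and ZT18 (0.47). Cry2, not called (0.25), changed sign without HepWT ZT14 replicate 2 (-0.01), the lowest of -0.01 to 0.56 on leaving out 1 library, and the contrast of Usp2 changed sign against ZT10 and ZT18 (0.24). Of 128 named genes called at ZT14, 58 kept their call and sign under every alternative run. With 2 libraries per group, genes whose replicates differ several-fold could not be resolved. The cause of these changes was not tested. By construction, a stricter threshold, fewer libraries and another set of tested genes change a count.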

Other observations

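Further gene groups are given with the members called at ZT14, where 7.64% of all tested genes were called. Of 24 genes of apolipoproteins and lipoprotein assembly, 4 were higher in HepKO and 0 lower (16.7%, median log2 0.06). Beside Lpl and Apoa4 these were Lipc, hepatic lipase, at 191 and 198 CPM in HepKO and 125 and 109 CPM in HepWT (log2 0.73 ± 0.12), and Apoh, at 1780 and 2057 against 1353 and 1317 CPM (log2 0.52 ± 0.11). Apoh and Apoa4 lost their calls without HepKO ZT14 replicate 2 (0.41 and 0.27), which left 2 of the 4. Of 20 genes of pericentral hepatocytes, 4 were higher and 0 lower (median log2 0.28): Gstm3 and Oat, given above, the amino acid transporter Slc1a4, at 8.70 and 14.1 against 2.72 and 2.82 CPM (log2 2.03 ± 0.29), and the phosphatase Lhpp, at 70.7 and 86.6 against 44.5 and 29.0 CPM (log2 1.10 ± 0.20). Of 16 periportal genes 2 were higher and 2 lower, and 0 were called without HepWT ZT14 replicate 2. Of 25 genes of iron and heme, 5 were higher and 0 lower (median log2 0.05), with Clpx as the only called change above 2-fold. Tmprss6, a protease that lowers hepcidin, was at 504 and 472 against 372 and 338 CPM (log2 0.46 ± 0.08). The heme enzyme Uros (log2 0.45) and the iron regulator Hfe (log2 0.45) lost their calls without HepKO ZT14 replicate 1 (0.38 and 0.40) or HepWT ZT14 replicate 1 (0.42 and 0.43), Uros also without HepWT ZT14 replicate 2 (0.48), and the list count was 2 without either of the first 2 libraries.

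Of 25 acute phase genes, 3 were higher and 1 was lower. Cp, ceruloplasmin, was at 2156 and 1886 CPM in HepKO and 950 and 1380 CPM in HepWT (log2 0.80 ± 0.15), and the fibrinogen chains Fga and Fgg had log2 0.64 and 0.62. Without HepWT ZT14 replicate 1 the values were 0.55 for Cp, 0.35 for Fga and 0.33 for Fgg, and none was called; without HepKO ZT14 replicate 1 Fga (0.49), Fgg (0.47) and the interleukin 6 receptor gene Il6ra (-0.68) were not. The 4 calls were 2 without either of those libraries and 7 without HepWT ZT14 replicate 2. Of 22 autophagy genes 2 were higher and 4 lower; the lysosomal membrane gene Lamp2 rose with log2 0.51 ± 0.09, and the count of 6 was 1 without HepKO ZT14 replicate 1 and 3 without HepWT ZT14 replicate 1. Of 16 NRF2 and glutathione genes 3 were higher, Prdx1, Srxn1 and Gsr (log2 0.52, 0.46 and 0.42), and 1 was called without HepWT ZT14 replicate 2. Of 25 male-biased genes 3 were higher and 1 lower, with 2 called without HepWT ZT14 replicate 1, of 18 genes of the growth hormone axis 1 was higher (5.56%; Stat5b, log2 0.51) and 0 were called without HepKO ZT14 replicate 2 or HepWT ZT14 replicate 2, and of 29 cell cycle genes 1 was higher (Cdkn1a) and 1 lower (Wee1), 6.9% of the list. The shares of the last 2 lists lie below that of all tested genes. Marker sums of B cells were 4.99 and 6.53 CPM in HepKO and 6.47 and 5.44 CPM in HepWT, of erythroid cells 183 and 88.3 against 117 and 96.4 CPM, and of adipocytes 0.412 and 2.41 against 8.61 and 1.80 CPM. Of the pancreas markers Prss2 was at 0 in all 4 libraries, while Cela1 was at 37.7 and 27.8 against 8.16 and 7.58 CPM, and its difference was positive at all 6 times.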
